A study of Mus musculus with 6 samples.

Results

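The IgE receptor, the Fc gamma receptors and the first proteins they signal through were followed in leukemia stem cells, the cells able to start the leukemia anew in another animal, taken from bone marrow and from liver of the same model. The 10 genes were given by symbol and not by their measured values: Fcer1a, Ms4a2, Fcer1g, Fcgr2b, Fcgr3, Lyn, Syk, Lat, Lat2 and Btk. All 10 were found among the 53735 genes of the deposited table, and all 10 passed the filter of a mean of at least 10 normalized counts that left 14298 genes to test. The data are RNA sequencing of 6 libraries, 3 labelled bone marrow and 3 labelled liver, from untreated mice of strain C57, labelled male, sampled at day 13 after leukemia cells were transplanted. Both groups share strain, transplant, day and absence of treatment and differ by the labels in tissue alone, while the leukemia's driver, any sorting markers and any pooling of animals are not stated in the labels.

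Fc receptors bind the constant part of antibodies and turn bound antigen into a signal inside the cell. The high-affinity IgE receptor of mast cells and basophils is built from an alpha chain that binds IgE (Fcer1a), a beta chain that strengthens the signal (Ms4a2) and a gamma chain that carries an immunoreceptor tyrosine-based activation motif (Fcer1g) and also serves other receptors. On crosslinking, the kinase Lyn phosphorylates these chains, Syk docks on them and phosphorylates the adaptors Lat and Lat2, and Btk helps to activate phospholipase C gamma. Fcgr3 is an activating IgG receptor that signals through the same gamma chain, and Fcgr2b is the inhibitory IgG receptor that recruits the lipid phosphatase encoded by Inpp5d.

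Depth was 15.4 to 18.5 M recovered reads in bone marrow and 9.73 to 13.8 M in liver, so liver values rest on fewer reads. The libraries of a tissue are called technical replicates in the labels, with no animals named, and p-values measure no more than the spread among them. Against the male label, Xist, expressed from the inactive X chromosome of female cells, stood at 4860 (bone marrow) and 6229 (liver) normalized counts in replicate 1, at 4.28 and 1.42 in replicate 2 and at 2486 and 2425 in replicate 3. Replicate 3 lay between replicates 1 and 2 in 7 of the 10 genes in bone marrow and in 9 of the 10 in liver, against 43.7% and 50.9% of all genes tested. The summed level of 4 Y-linked genes was 145 and 0 in replicate 1, 2987 and 2675 in replicate 2 and 1553 and 1634 in replicate 3. Replicates 1 and 2 thus differed in sex-linked transcripts as repeat runs of 1 RNA sample would not, in the same way in both tissues. Replicate 3 lay between them, and whether it holds material of both, which would leave 2 independent libraries a tissue, was not tested. Without both replicate 3 libraries, none of the 10 genes passed (limma adjusted p of 0.87 or more), in a fit where 2 of all 14298 genes tested did.

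The stretches of 250 bases before the RefSeq start of the genes for the 3 IgE receptor chains are shown because the alpha and beta chain genes had lower means in liver and the gamma chain gene did not. All were read on the minus strand of GRCm38.p6, at chr1:173227230-173227479 (Fcer1a), chr19:11623720-11623969 (Ms4a2) and chr1:171234350-171234599 (Fcer1g). The GENCODE M21 annotation puts the start of Fcer1a at 173227214, short of the RefSeq start. In the Fcer1g window 16 bases lie in exons. Capitals mark 3 short motifs, searched on both strands: AGATAA, a core bound by GATA factors, AGGAAG, a core bound by ETS factors such as PU.1, and CATGTG, an E-box of the type bound by MITF. None of these matches overlapped another.
Fcer1a: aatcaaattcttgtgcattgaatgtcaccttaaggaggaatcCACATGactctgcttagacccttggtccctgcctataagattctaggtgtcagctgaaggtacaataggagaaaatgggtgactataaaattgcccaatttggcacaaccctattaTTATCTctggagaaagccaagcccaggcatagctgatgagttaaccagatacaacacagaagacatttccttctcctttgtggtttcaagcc
Ms4a2: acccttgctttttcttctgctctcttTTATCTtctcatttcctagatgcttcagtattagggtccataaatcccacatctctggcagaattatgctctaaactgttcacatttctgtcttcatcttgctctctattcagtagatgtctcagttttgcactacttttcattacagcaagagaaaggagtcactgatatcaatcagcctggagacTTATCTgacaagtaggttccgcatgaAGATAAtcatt
Fcer1g: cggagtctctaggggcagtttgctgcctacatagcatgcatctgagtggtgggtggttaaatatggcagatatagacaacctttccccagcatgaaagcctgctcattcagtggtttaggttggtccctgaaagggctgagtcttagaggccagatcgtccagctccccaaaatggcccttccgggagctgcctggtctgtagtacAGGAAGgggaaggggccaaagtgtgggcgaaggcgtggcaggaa
The window of Ms4a2 held 3 matches to AGATAA and that of Fcer1a held 1, together with 1 match to CATGTG. The window of Fcer1g held 1 match to AGGAAG and none to the others. AGATAA was found in 9.99% of 32851 promoter windows of this length in RefSeq, AGGAAG in 29.5% and CATGTG in 12.3%. Of the 10 genes 8 had a promoter entry, Lat2 and Lyn being without one, and Fcer1a and Ms4a2 were the 2 of these 8 with AGATAA. Neither Fcer1a nor Ms4a2 passed in limma, and any part of these motifs in the levels was not tested.

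Liver was compared with bone marrow to see whether the cells in the liver differ in their antibody receptors. The difference of greatest size was in the IgE-binding alpha chain transcript, with a mean of 240 normalized counts in liver and 939 in bone marrow, and it fell just short of the adjusted threshold. Lat2 was the 1 gene of the 10 that passed, with a small fall. The 2 IgG receptor genes were higher in liver replicates 2 and 3 but not in liver replicate 1, and the gamma chain, Syk and Btk had mean differences close to 0.

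**Figure D1:**
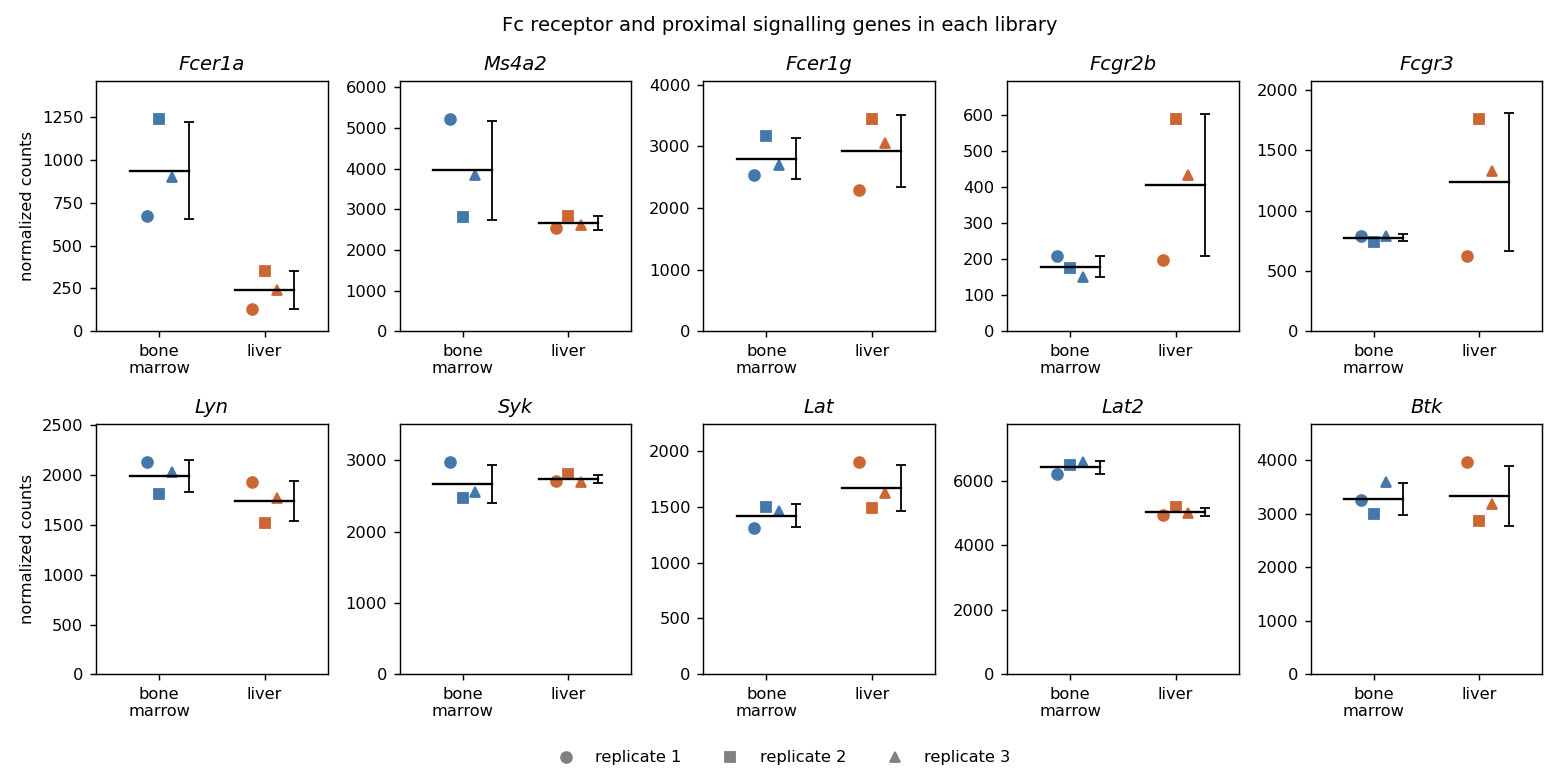
Normalized counts (vertical axes, from 0) of the 10 genes in each library, by tissue, with replicate number shown by symbol, the mean as a line and the SD as a bar (n = 3 each). Fcer1a and Lat2 are the genes whose tissues do not overlap, and for Fcgr2b and Fcgr3 liver replicate 1 lies near the bone marrow libraries.

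By limma, 1 of the 10 genes had an adjusted p under 0.05, against 1.01% of all genes tested in either direction and 0.594% lower in liver. On the recovered reads, edgeR called 1 of the 10, against 0.944% of all genes, and DESeq2 called 4 (Fcer1a, Ms4a2, Fcgr2b and Lat2), against 4.84%. At an unadjusted p under 0.05 there were 4 of 10, against 15.7% of all genes. The tissues did not overlap in 2 of 10 genes, both lower in liver, against 22.3% of all genes in either direction and 10.9% lower in liver. With so few genes, the share without overlap was near that of all genes. The median log2 fold change of the 10 was 0.03, against -0.01 over all genes tested.

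Fcer1a stood at 673, 1239 and 903 normalized counts in bone marrow replicates 1, 2 and 3 and at 128, 354 and 238 in the liver replicates. Every liver library lay below every bone marrow library. The means were 939 ± 284 and 240 ± 113 (SD, n = 3 each), which gave a log2 fold change of -2.03 ± 0.37 (SE) with a 95% interval of -2.90 to -1.17 and a limma adjusted p of 0.061 (unadjusted p = 7.4e-04). These values rest on 3412 reads in bone marrow and 577 in liver. In GENCODE M21 (GRCm38) the gene is placed on chromosome 1, minus strand, between 173221284 and 173227214. Its exons overlap those of no other gene model, and none of the 50-base stretches of its transcripts occurs elsewhere among annotated transcripts. DESeq2 on the recovered reads gave -1.97 with an adjusted p of 2.5e-07, and edgeR gave -1.98 with 0.062. Without liver replicate 1 the limma adjusted p was 0.027 (log2 fold change -1.64), without liver replicate 2 it was 0.040 (-2.37), and over the other fits that left out 1 library it ran from 0.15 to 0.28. Without both replicate 3 libraries the log2 fold change was -2.09 and the adjusted p 0.87, in a fit where 2 of all 14298 genes tested passed. With the replicate number as a block, a pairing that the labels do not state, the limma adjusted p was 8.4e-04. With the block and without both replicate 3 libraries it was 0.044. After random thinning of the libraries to equal depth, 1 draw gave a limma adjusted p of 0.058 and a second 0.048, so the call depended on the fit.

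Mast cell markers moved with Fcer1a. The summed level of 8 mast cell markers was between 3343 and 7424 in bone marrow, as normalized counts, and between 1383 and 2185 in liver. Of the 5 of them that could be tested, the tryptase gene Tpsb2 fell, 4 had tissues that did not overlap and were lower in liver, and Kit, the stem cell factor receptor gene, had a higher mean in liver (511 and 652). Of all genes tested 0.594% fell and 10.9% were lower in liver without overlap. The mast cell receptor genes Mrgprb1 and Mrgprb2 were at 0 in all libraries. The summed level of 4 basophil markers went the other way, with 1256 to 2315 in bone marrow and 2511 to 6781 in liver. Single basophil markers were split, 2 with a positive and 2 with a negative log2 fold change. The protease gene Prss34 rose, and Mcpt8 had a higher mean in liver (925 and 1714). Cd200r3 stood at 323 ± 114 and 288 ± 118. Il3ra stood at 344 ± 26.6 and 224 ± 39.9, lower in liver without overlap (limma adjusted p = 0.12). Their part in the level of Fcer1a was not tested, and in bulk libraries fewer cells of a type and less RNA per cell cannot be told apart.

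Ms4a2 stood at 5218, 2803 and 3857 normalized counts in bone marrow replicates 1, 2 and 3 and at 2528, 2847 and 2617 in liver. Bone marrow replicate 2, where Fcer1a was highest, had the lowest Ms4a2 of the bone marrow libraries, and it overlapped liver. The log2 fold change was -0.53 ± 0.20 (SE), with a 95% interval of -0.99 to -0.06 and a limma adjusted p of 0.27. It was -0.51 (0.88) without both replicate 3 libraries. It was -0.31 without bone marrow replicate 1 and -0.75 without bone marrow replicate 2, not passing in either fit, while DESeq2 called it (adjusted p = 0.046). The gene lies on chromosome 19 from 11615523 to 11623719, and 2.13% of the 50-base stretches of its transcripts also occur in Ms4a4b, which stood at 27.4 normalized counts or less.

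Fcer1g stood at 2536, 3168 and 2704 normalized counts in bone marrow and at 2286, 3443 and 3055 in liver. Replicate 2 was the highest and replicate 1 the lowest library of each tissue, and the tissues overlapped. Its log2 fold change was 0.05, with a 95% interval of -0.31 to 0.41 and a limma adjusted p of 0.91. The 3 chains of the IgE receptor therefore had log2 fold changes of -2.03, -0.53 and 0.05, with only the interval of the gamma chain holding 0. These intervals are per gene and not adjusted, and none of the 3 chains passed the adjusted threshold in limma.

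**Figure D2:**
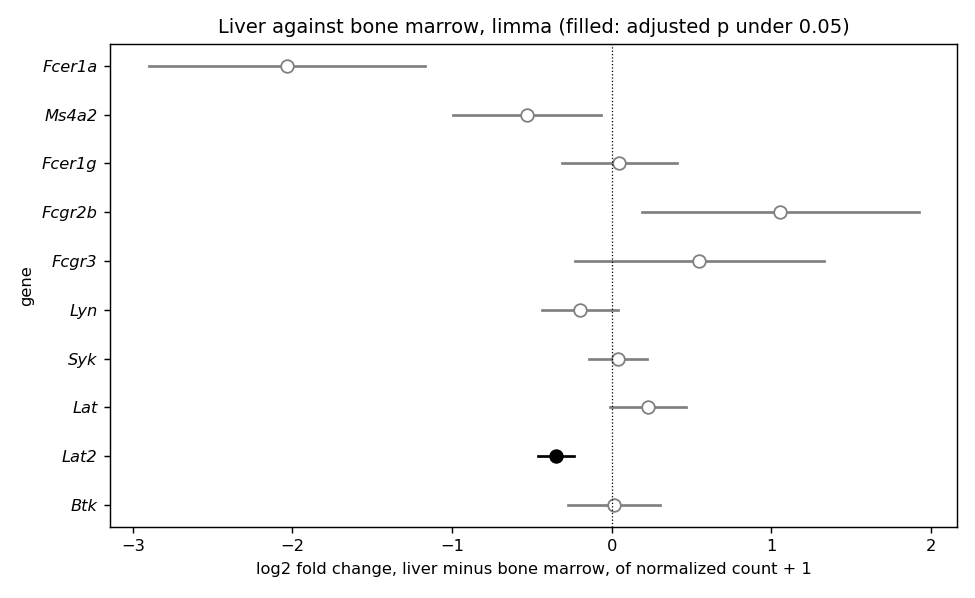
Log2 fold change, liver minus bone marrow, of each of the 10 genes (points) with its 95% interval (lines) from limma, filled where the adjusted p was under 0.05. Lat2 has the narrowest interval and the 1 filled point, and Fcer1a lies farthest from 0 at -2.03.

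The inhibitory receptor gene Fcgr2b stood at 208, 176 and 150 normalized counts in bone marrow replicates 1, 2 and 3 and at 197, 587 and 433 in liver. Liver replicates 2 and 3 lay above all bone marrow libraries, and liver replicate 1 lay among them. The means were 178 ± 29.1 and 406 ± 197 (SD, n = 3 each), which gave a log2 fold change of 1.06 ± 0.37 (SE) with a 95% interval of 0.19 to 1.93 and a limma adjusted p of 0.24. Fcgr3 stood at 794, 740 and 793 in bone marrow and at 623, 1758 and 1329 in liver. Liver replicate 1 was its lowest library of all. Its log2 fold change was 0.55 ± 0.33 (SE), with a 95% interval of -0.23 to 1.33 and a limma adjusted p of 0.49.

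Both values depended on which liver libraries were kept. Without liver replicate 1 the log2 fold changes were 1.51 for Fcgr2b (limma adjusted p = 0.014) and 0.98 for Fcgr3 (0.013). In that fit 427 of all genes tested passed, against 145 with all 6 libraries. Without liver replicate 2 the log2 fold changes were 0.72 (0.35) and 0.23 (0.73). They were 0.82 (0.88) and 0.45 (0.93) without both replicate 3 libraries. Within liver, replicate 2 exceeded replicate 1 by 1.57 log2 units for Fcgr2b and by 1.49 for Fcgr3, whereas in bone marrow the same differences were -0.24 and -0.10. DESeq2 called Fcgr2b (adjusted p = 0.017) and not Fcgr3 (0.49). The root mean square difference between the centred log2 profiles of these 2 genes over the 6 libraries was 0.29, and their correlation 0.94. This difference is small also for genes that change little, such as Lyn and Btk (0.13). They lie on chromosome 1, Fcgr2b from 170958617 to 170976547 and Fcgr3 from 171051174 to 171064935, and share 166 stretches of 50 bases, 10.2% of those of Fcgr3, so reads could be split between them. For Fcgr2b 395 of 3708 stretches (10.7%) also occur in other gene models, these 166 included.

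Cells outside the leukemia can carry these IgG receptors. The summed level of 8 neutrophil markers was between 34.1 and 55.8 in bone marrow, as normalized counts, and was 16.8, 259 and 117 in liver replicates 1, 2 and 3, high in the same liver libraries as Fcgr2b and Fcgr3, with Ly6g at 0 in all 6. The sum of 4 basophil markers was high in the same liver libraries and at a higher level, with 2511, 6781 and 5021. Prss34 stood at 1243, 3701 and 2694 in liver replicates 1, 2 and 3. For 10 macrophage and Kupffer cell markers the sum was 536 to 679 in bone marrow and 305, 621 and 452 in liver, led by Adgre1, with Clec4f, Vsig4 and Cd5l at 0. For 7 markers of liver sinusoidal endothelium, which carries Fcgr2b, it was 438 to 1146 in bone marrow, led by Pecam1. In liver replicates 1, 2 and 3 it was 481, 1399 and 1131. Oit3, another marker of this endothelium, stood at 95.2, 66.8 and 91.5 in bone marrow and at 45.4, 2.84 and 56.6 in liver, lower without overlap, while Stab2, Clec4g, Lyve1 and Kdr stood at 3.0 or less in every library and Cdh5 at 0. The 10 B cell markers summed to 62.5 to 95.1 in bone marrow and 19.8 to 96.7 in liver, led by Cd79b, with Ms4a1 at 0. This order of the liver replicates was not particular to any of these cell types. It also held for the sums of mast cell (1383, 2185 and 1918) and eosinophil markers (1278, 1413 and 1406). The same was seen for T and NK cell (156, 259 and 222) and hepatocyte markers (2310, 3064 and 2806). Megakaryocyte and platelet markers had the reverse order (37110, 16515 and 24429). The part of neutrophils, basophils and macrophages in the levels of Fcgr2b and Fcgr3 was not tested.

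Of the proximal kinases none passed. Lyn, the Src family kinase that starts the signal and can also restrain it, stood at 2125, 1809 and 2030 normalized counts in bone marrow and at 1928, 1522 and 1765 in liver, with overlapping tissues and a log2 fold change of -0.20 (95% interval -0.44 to 0.04, limma adjusted p = 0.42). Of the 50-base stretches of its transcripts 21.5% also occur in another gene model, most of them in Gm11787, so its reads are in part ambiguous. Syk stood at 2969, 2470 and 2559 in bone marrow and at 2702, 2809 and 2699 in liver. Its log2 fold change was 0.04, with a 95% interval of -0.14 to 0.22 (adjusted p = 0.85). Btk, an X-linked Tec family kinase, stood at 3254, 2988 and 3584 in bone marrow and at 3954, 2864 and 3179 in liver. Liver replicate 1 was its highest library and liver replicate 2 its lowest, and the log2 fold change was 0.02 (95% interval -0.27 to 0.30, adjusted p = 0.97).

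The 2 related transmembrane adaptors had mean differences of opposite sign. Lat2, also called NTAL, an adaptor of mast cells, B cells and myeloid cells, stood at 6191, 6469 and 6565 normalized counts in bone marrow and at 4927, 5177 and 5001 in liver. The tissues did not overlap and were tight within themselves, with means of 6409 ± 194 and 5035 ± 128 (SD, n = 3 each). Lat2 fell in liver, with a log2 fold change of -0.35 ± 0.05 (SE), a 95% interval of -0.46 to -0.24 and a limma adjusted p of 0.033. The call was kept without liver replicate 1 (adjusted p = 0.023) and without liver replicate 2 (0.042), and lost without bone marrow replicates 1, 2 and 3 (0.11, 0.13 and 0.22), without liver replicate 3 (0.20) and without both replicate 3 libraries (0.87), with log2 fold changes of -0.37 to -0.33 over these fits.

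Lat2 is placed on chromosome 5, minus strand, between 134600022 and 134615025, and 952 of its exon bases (36.3%) overlap exons of Rfc2 on the plus strand. Of the 50-base stretches of its transcripts 46.7% also occur in Rfc2, read on either strand. The library chemistry does not mark the strand, so reads from the shared bases cannot be told apart. Rfc2, a subunit gene of the replication factor C clamp loader, stood at 8320, 8221 and 8187 normalized counts in bone marrow and at 7917, 6847 and 7628 in liver. It was lower in liver without overlap, with a log2 fold change of -0.15 (limma adjusted p = 0.31). Its part in the fall of Lat2 was not tested.

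Lat, the adaptor shared with T cells and platelets, stood at 1305, 1495 and 1460 normalized counts in bone marrow and at 1896, 1488 and 1624 in liver. Bone marrow replicate 2 and liver replicate 2 were at nearly the same level, so the tissues overlapped. Its log2 fold change was 0.23, with a 95% interval of -0.01 to 0.47 and a limma adjusted p of 0.34. Of 9 T and NK cell markers Cd3e, Cd4 and Ncr1 were at 0 in all libraries, and the sum was 245 to 284 in bone marrow and 156 to 259 in liver, led by Klrb1c. The sum of 7 megakaryocyte and platelet markers, led by the integrin gene Itga2b, was 31311 to 37490 in bone marrow and 37110, 16515 and 24429 in liver replicates 1, 2 and 3, and liver replicate 1 was also the highest liver library for Lat and Btk. Their part in these levels was not tested.

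Per kilobase of annotated exon, the gamma chain was the most abundant of the 10 transcripts in both tissues and Fcgr2b the least. In bone marrow, normalized counts per kilobase were 3207 ± 375 for Fcer1g, 2445 ± 74.0 for Lat2, 1407 ± 431 for Ms4a2, 1040 ± 94.7 for Btk and 940 ± 285 for Fcer1a (SD, n = 3 each). Below these stood Lat with 513 ± 36.5, Lyn with 488 ± 39.8, Fcgr3 with 447 ± 17.7, Syk with 285 ± 28.4 and Fcgr2b with 30.8 ± 5.03. The ranges of Ms4a2, Btk and Fcer1a overlapped, as did those of Lat and Lyn and of Lyn and Fcgr3, and the other neighbours were apart.

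In liver the order by level per kilobase was Fcer1g (3350 ± 673), Lat2 (1921 ± 48.9), Btk (1058 ± 178), Ms4a2 (947 ± 58.5), Fcgr3 (713 ± 330), Lat (603 ± 75.0), Lyn (427 ± 50.1), Syk (292 ± 6.68), Fcer1a (241 ± 113) and Fcgr2b (70.1 ± 33.97). Fcer1a was thus the fifth of the 10 in bone marrow and the ninth in liver. The ranges of Btk and Ms4a2, of Ms4a2 and Fcgr3, of Fcgr3 and Lat and of Syk and Fcer1a overlapped. These levels use the summed exon length of all annotated isoforms, 5.79 kilobases for Fcgr2b and 0.998 for Fcer1a, and a shorter expressed isoform would raise a value.

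The rest of the pathway was read from 8 lists of 120 genes, of which 98 could be tested. Of these 0 rose, 2 fell and 96 did not pass, where 1.01% of all genes tested passed and 0.594% fell. Without both replicate 3 libraries 0 of the pathway genes passed, in a fit where 2 of all 14298 genes tested did. Prkcb, a protein kinase C isoform gene, fell in liver (229 ± 14.1 in bone marrow against 110 ± 13.1 normalized counts, log2 fold change -1.05 ± 0.15 (SE), limma adjusted p = 0.038). Its bone marrow libraries held 235, 212 and 238 and its liver libraries 97.8, 109 and 124, without overlap. Lilrb4a, an inhibitory receptor of mast and myeloid cells with a close relative that can share its reads, fell from 5931 ± 99.9 to 4122 ± 431 (-0.53 ± 0.08 (SE), adjusted p = 0.037). Its libraries held 6044, 5890 and 5857 in bone marrow and 4620, 3880 and 3865 in liver. Both calls were lost without bone marrow replicates 1, 2 or 3 and without liver replicates 2 or 3, and were kept without liver replicate 1.

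**Figure D3:**
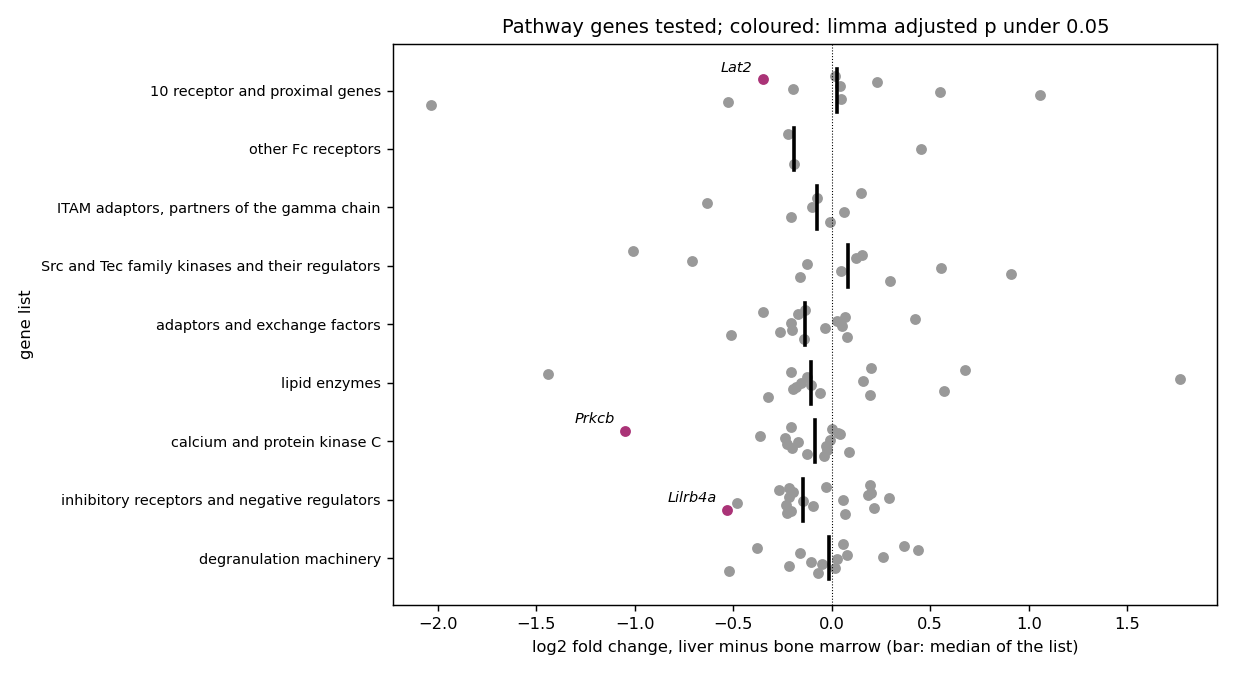
Log2 fold change, liver minus bone marrow, of each tested gene (points) in the 10 receptor and proximal genes and in 8 lists of the pathway, with the median of each list as a bar. The coloured points, Lat2, Prkcb and Lilrb4a, passed in limma and all lie below 0.

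Other Fc receptors were scarce: of 11 genes 3 reached the filter, none of them passed and the median log2 fold change was -0.19. The high-affinity IgG receptor gene Fcgr1 stood at 7.71 to 23.3 normalized counts over the 6 libraries, and Fcgr4 at 1.796 to 22.7, its highest value being in liver replicate 2. Trim21, a cytosolic antibody receptor gene, had a log2 fold change of -0.22 and Fcgrt, the neonatal Fc receptor gene, of 0.45, neither passing. Among ITAM adaptors and receptors that pair with the gamma chain 0 of 7 passed (median -0.07). Hcst, an adaptor on this list that carries no ITAM, stood at 714 ± 38.1 and 618 ± 21.5 (limma adjusted p = 0.28). Clec4n stood at 75.1 ± 18.4 and 51.9 ± 29.3 (0.52). Tyrobp, an ITAM adaptor like the gamma chain, had a log2 fold change of -0.01.

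Of 10 Src and Tec family kinases and regulators 0 passed (median 0.08). Fyn, which acts beside Lyn downstream of the IgE receptor, stood at 1384, 1469 and 1464 normalized counts in bone marrow and at 1869, 1724 and 1717 in liver, without overlap (log2 fold change 0.30, adjusted p = 0.089). Zap70, the relative of Syk, stood at 75.8 ± 5.78 and 38.1 ± 10.3 (-1.01, adjusted p = 0.14). Of 14 adaptors and exchange factors 0 passed (median -0.14), with the lowest p for Gab2, the adaptor that links Fyn to PI3-kinase (1174 ± 116 and 829 ± 156, log2 fold change -0.51, adjusted p = 0.14), and for Vav1 (-0.21, 0.26). Of 15 lipid enzymes 0 passed (median -0.11), with the lowest p for the sphingosine kinase gene Sphk1 (18.9 ± 7.56 and 6.13 ± 1.63, adjusted p = 0.21) and for Pla2g4a (0.20, 0.32). Plcg2, the phospholipase C gamma isoform of blood cells, had a log2 fold change of 0.20 (adjusted p = 0.57).

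Of 16 genes of calcium and protein kinase C signalling 13 had a negative log2 fold change (median -0.08) and Prkcb was the 1 that fell. Of 19 inhibitory receptors and negative regulators 12 were negative (median -0.14) and Lilrb4a was the 1 that fell. Among all 14298 genes tested 7374 were negative. Inpp5d, the phosphatase recruited by Fcgr2b, stood at 4520 ± 129 and 4089 ± 133 normalized counts without overlap (-0.14, adjusted p = 0.24). Of 14 genes of the degranulation machinery 0 passed (median -0.02), with the lowest p for Rab27a (1015 ± 125 and 1373 ± 144, log2 fold change 0.44, adjusted p = 0.14) and for Unc13d, which encodes the granule priming factor Munc13-4 (3794 ± 149 and 3393 ± 230, log2 fold change -0.16, adjusted p = 0.29). Their tissues did not overlap, Rab27a being higher and Unc13d lower in liver. Inpp5d was chosen for its role beside Fcgr2b, Plcg2 for its role beside Btk, and Tyrobp as an ITAM adaptor like the gamma chain.

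By the root mean square difference between log2 profiles over the 6 libraries, each centred on its own mean, the gene nearest to Fcer1a among 10120 candidates was Cpa3, which encodes mast cell carboxypeptidase (difference 0.14). Cpa3 is also the most abundant of the mast cell markers summed above. Cpa3 stood at 2207, 5073 and 3717 normalized counts in bone marrow and at 493, 1251 and 1037 in liver, so replicate 2 was the highest library of each tissue for both genes. Its log2 fold change was -2.01 (limma adjusted p = 0.071). Next came Hs6st2, a heparan sulfate sulfotransferase gene (0.24), the integrin gene Itgae (0.27), the chitinase-like gene Chil3 (0.27) and the complement gene C7 (0.29). The gene nearest to Ms4a2 was Cd34, a surface marker of stem and progenitor cells (0.08), followed by Ddx4, Gpr65, Usp6nl and Mir17hg (each 0.14). Cd34 stood at 2148, 1179 and 1551 in bone marrow and at 1063, 1048 and 1143 in liver. The 2 IgE receptor chains thus had different nearest genes, and the difference between their own profiles was 0.99 (correlation 0.53).

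**Figure D4:**
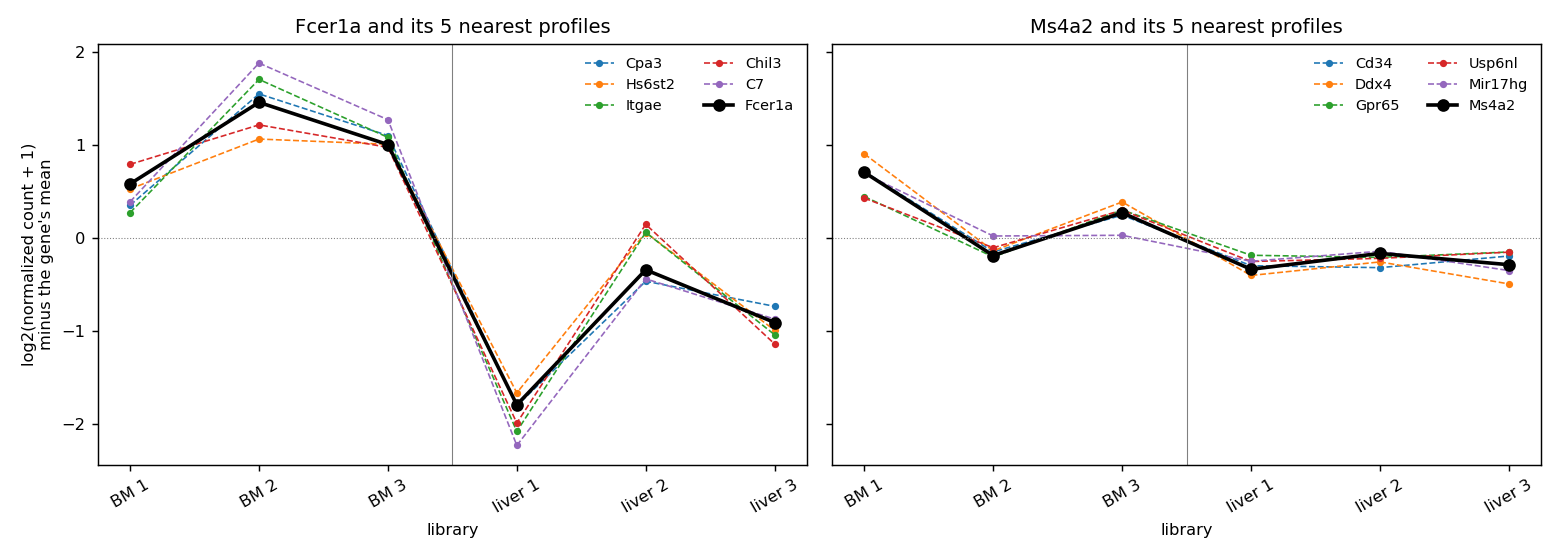
Log2(normalized count + 1) minus each gene's mean (vertical axis) over the 6 libraries for Fcer1a and for Ms4a2 (black), each with its 5 nearest genes (dashed), BM standing for bone marrow. Fcer1a and Cpa3 are highest in bone marrow replicate 2 and lowest in liver replicate 1, whereas Ms4a2 and Cd34 are highest in bone marrow replicate 1.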

How the data were processed

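RNA was measured in 3 bone marrow and 3 liver libraries. Per the labels' protocols, RNA came from a column kit and libraries from a low-input full-length cDNA kit with tagmentation, a chemistry without strand information. The submitters' processing notes name STAR 2.6.0c, DESeq2 1.16.1, bcl2fastq 2.19.0 and Trimmomatic 0.36, run with R 3.4.1, and the sources used here give no genome build, annotation or read counter. The deposited signal is DESeq2-normalized: each library's read counts were divided by its size factor by the authors, per the name of the deposited table. In each library 100% of values were whole multiples of the smallest value within 0.01, so whole reads were recovered, 1 read equalling between 0.744 (bone marrow replicate 3) and 1.42 normalized counts (liver replicate 2). Libraries of a tissue differed by more than sampling noise (chi-square per degree of freedom 6.50 to 25.9), and all 6 were kept.

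Log2(normalized count + 1) was fitted for all 14298 genes with a mean of at least 10 with limma 3.58.1 in R 4.3.3, tissue being the only term. The variance was allowed to follow the mean, tests were two-sided, and p was adjusted by Benjamini-Hochberg over all genes, threshold 0.05. The log2(value + 1) scale of the fold changes shrinks those of low genes. edgeR 4.0.16, DESeq2 1.42.0, TMM factors, other pseudocounts and filters, a replicate term, thinning (with a second draw added after the data were seen) and leaving out libraries were tried. On data simulated for this comparison (14082 genes tested) 34% of 1.5-fold changes, 56% of 2-fold, 72% of 4-fold and 98% of 8-fold changes were recovered, and 11 of 141 calls were false. The genes and lists were chosen with earlier results of these data known. Of each pathway list the genes that passed were named, or the 2 with the lowest p, of each marker list the most abundant gene, and the 5 nearest profiles of Fcer1a and Ms4a2 among named genes with a mean of at least 50, any other gene being chosen after its values were seen. Of the listed genes Cd300c2 and Mcpt11 were not matched. Positions are from GENCODE M21 (GRCm38) by symbol and promoters from RefSeq (GRCm38.p6), neither known to be the authors' annotation. Ratios were tested with scipy 1.17.1, and figures drawn with matplotlib 3.10.9.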

Additional observations from a re-analysis of the deposited data

How the results depend on the processing

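Of all genes, 145 differed between the tissues, and of the 10 receptor and proximal genes 1. TMM factors, pseudocounts of 0.5 and 10, a mean of at least 50, edgeR and thinning to equal depth kept the count of the 10 at 1. A second random draw of the thinning, added after the data were seen, gave 2, since Fcer1a then passed (limma adjusted p = 0.048, against 0.058 in the first draw), so its call depends on the draw. Without a filter it was 2 and with DESeq2 4, when 638 of all genes were called. Leaving out 1 library gave 6 to 427 of all genes and 0 to 4 of the 10. Without both replicate 3 libraries the counts were 2 and 0. In those fits an arm or both hold 2 libraries, and fewer libraries are tested.

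Fits that left out 1 library gave log2 fold changes of -0.078 to 0.22 for Fcer1g, -0.011 to 0.12 for Syk and -0.11 to 0.12 for Btk, so the sign of these changes is not fixed. Without both replicate 3 libraries that of Fcer1g was -0.015, without and with the replicate term. The other 7 of the 10 genes kept their sign in each of 18 alternatives.

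With the replicate number as a block, 525 of all genes and 2 of the 10 (Lat2 and Fcer1a, adjusted p = 0.012 and 8.4e-04) were called, and with the block and without both replicate 3 libraries 15 and 1. The deviations of same-numbered libraries from their tissue means correlated at 0.44, 0.40 and 0.06 for replicates 1, 2 and 3, across genes. Bone marrow replicate 2 with liver replicate 1 gave -0.44, and bone marrow replicate 1 with liver replicate 2 gave -0.38. Liver replicate 3 correlated best with bone marrow replicate 2 (0.15), and the main fit was left without a block. As replicate 3 lay between replicates 1 and 2 in sex-linked transcripts, its low correlation cannot decide whether the numbers pair the libraries. The sex-linked levels, which follow the replicate number in both tissues, are a hint from the data that they may. The block also called 5 of the 98 pathway genes, Gab2, Lck and Rab27a (adjusted p = 0.023, 0.027 and 0.023) beside Prkcb and Lilrb4a. Summed over the 3 libraries of a tissue, the fewest reads were 577 for Fcer1a in liver and 640 for Fcgr2b in bone marrow. In a single library the fewest were 130, for Fcer1a in liver replicate 1.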

Other observations

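Ratios of normalized counts within a library do not depend on the size factor of that library, and 3 of them were formed after the values were seen. They compare reads and not molecules, since the genes differ in length. The ratio of Ms4a2 to Fcer1a was 7.75, 2.26 and 4.27 in bone marrow replicates 1, 2 and 3 and 19.7, 8.04 and 10.97 in liver. The ratio of Lat2 to Lat was 4.74, 4.33 and 4.50 in bone marrow and 2.6, 3.48 and 3.08 in liver. The ratio of Fcgr3 to Fcgr2b was 3.81, 4.19 and 5.28 in bone marrow and 3.17, 3.00 and 3.07 in liver, so it was lower also in liver replicate 1, where neither receptor gene was high. The tissues did not overlap in any of these 3 ratios, and each had a two-sided exact permutation p of 0.10 (0.10 adjusted over the 3), the smallest that 3 against 3 libraries can give.

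Eosinophil markers moved in both directions. Siglecf, which encodes an inhibitory receptor of eosinophils, fell, with 2409 ± 109 in bone marrow and 1155 ± 64.6 normalized counts in liver (log2 fold change -1.06 ± 0.07 (SE), limma adjusted p = 0.0019). Epx rose from 0 reads in bone marrow. The sum of the 7 eosinophil markers, most of it Siglecf, was 2333 to 2565 in bone marrow and 1278 to 1413 in liver, with Ear1 at 0 in all libraries. Of 8 hepatocyte markers Alb, Ttr, Serpina1a and Fgb were at 0 in every library, and the sum, 2674 to 5697 in bone marrow and 2310 to 3064 in liver, was nearly all Apoa1.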
